A study of Mus musculus with 12 samples.

Results

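The genes described are 10 of the 22180 genes tested: 8 inhibitory receptors or receptor ligands of T cells (Ctla4, Tigit, Lag3, Havcr2, Pdcd1, Btla, Cd160 and Cd200) and 2 cell surface enzymes that break down extracellular nucleotides (Entpd1 and Nt5e). They were matched by symbol to the array's annotation, and each had 1 row in the table of log2 values. RNA of sorted mouse splenic CD4+ T cells was hybridised to 12 Affymetrix Mouse Gene 2.0 ST arrays, 2 for each of 6 groups. The mice were Foxp3.eGFP animals of the C57BL/6 background, aged 8 weeks, a reporter strain in which cells that express Foxp3 carry green fluorescent protein. The Foxp3+ fraction is called Treg and the Foxp3- fraction Teff, as in the labels. Control Treg and Control Teff cells were fresh. The a-CD3-CD28 groups had 3 days with antibodies to CD3 and CD28 at 2 µg/ml of each, which engage the T cell receptor and its costimulator. The OX40L-JAG1 groups had 3 days with soluble OX40L at 5 µg/ml and JAG1 at 1 µg/ml, ligands of the TNF receptor OX40 and of Notch receptors. The study set the first treatment against the second as growth through the T cell receptor or without it. Because the control was fresh, effects of 3 days in culture and of the added agents cannot be told apart against it. The labels do not tell whether a group's 2 arrays come from different mice or cultures, so p-values reflect the spread between the arrays at hand, possibly a technical one.

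Coinhibitory receptors dampen T cell activation. CTLA-4 competes with CD28 for the ligands CD80 and CD86, PD-1 (Pdcd1) binds PD-L1 and PD-L2, and TIGIT binds the poliovirus receptor that the activating receptor CD226 also uses. Many of these receptors are induced when a T cell is activated, and several are high in Treg cells at rest. CD39 (Entpd1) converts extracellular ATP to AMP and CD73 (Nt5e) converts AMP to adenosine, which signals through inhibitory receptors on T cells; mouse Treg cells are known to carry both.

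Foxp3, the gene behind the sort, had mean log2 intensities of 10.37, 10.78 and 11.12 in Control, OX40L-JAG1 and a-CD3-CD28 Treg cells and of 5.66, 6.58 and 5.65 in the matching Teff cells. All 7 measured T cell markers were above the lowest array median (4.87) in every group. The OX40L-JAG1 Teff arrays stood apart: the SD over genes was 1.71 and 1.49 against 1.95 to 2.19 in the other arrays, and the correlation between their replicates was 0.881 against 0.984 to 0.994. Their summed linear intensity of the T cell markers was 4090 to 7310, against 9200 to 16500 in the other groups. The sum of 9 neutrophil markers was 4080 to 8560 in OX40L-JAG1 Teff and 1470 to 1820 in OX40L-JAG1 Treg cells, against 164 to 597 in the other 4 groups. Sums of 6 basophil and mast cell markers (1360 to 3020 and 663 to 816, against 90.2 to 228) and of 13 measured myeloid and dendritic markers (990 to 1830 and 945 to 979, against 295 to 376) were also higher in those groups. Of the neutrophil markers, 9 of 9 and 7 of 9 had means above the lowest array median in OX40L-JAG1 Teff and OX40L-JAG1 Treg cells, and 1 to 5 of 9 did in the other groups. The 4 measured erythroid and platelet markers summed to 298 to 982 in OX40L-JAG1 Teff, 459 to 580 in OX40L-JAG1 Treg, 434 to 444 in a-CD3-CD28 Teff and 224 to 233 in a-CD3-CD28 Treg cells, against 115 to 128 in both control groups. B cell markers (9 measured) summed to 470 to 475 in Control Teff and 335 to 438 in OX40L-JAG1 Teff cells, and to 226 to 318 in the other 4 groups, and the 7 markers of CD8 T and NK cells to 248 to 679 in OX40L-JAG1 Teff and 252 to 457 elsewhere. In bulk samples, fewer cells of a type and less RNA per cell cannot be told apart. The part of other cells in any result below was not tested.

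**Figure D1:**
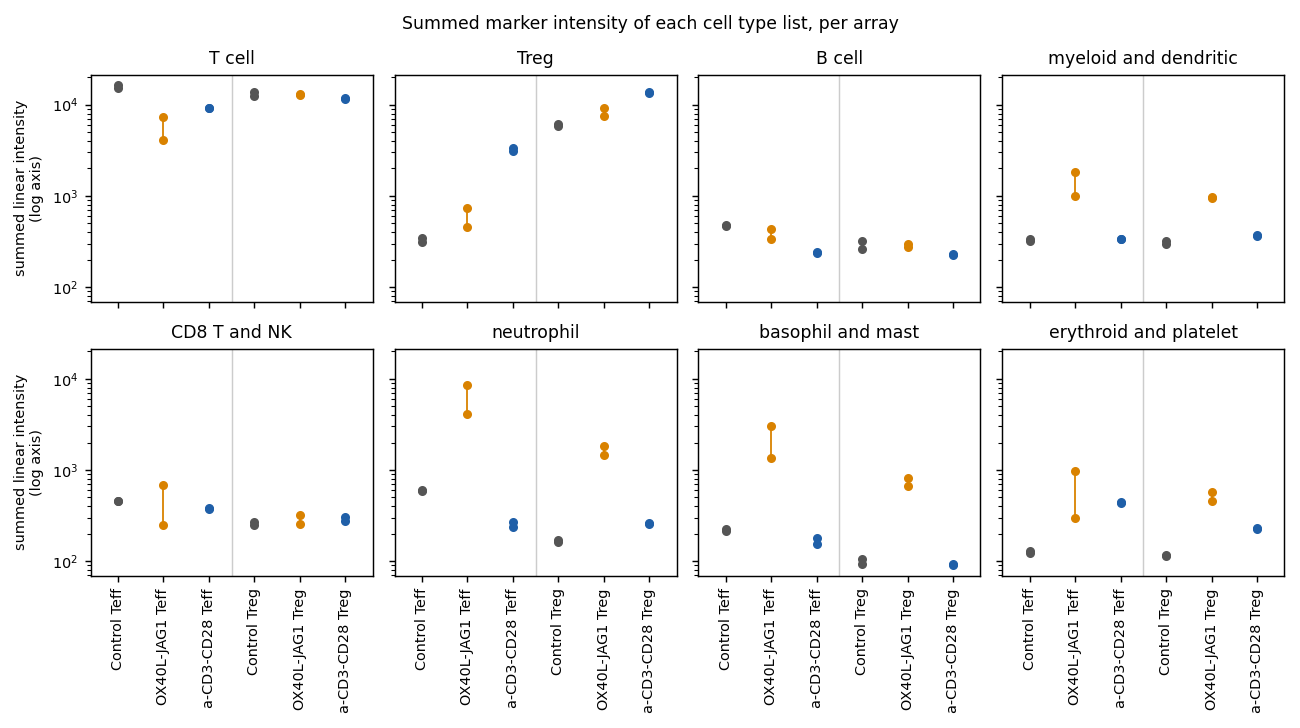
Summed linear intensity (log axis) of the measured genes of 8 marker lists in the 6 groups; the 2 points of a group are its arrays, joined by a line. Neutrophil, basophil and mast, and myeloid and dendritic sums are highest in the OX40L-JAG1 groups, and the T cell sum is lowest in OX40L-JAG1 Teff cells, at 4090 to 7310.

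RefSeq's promoter table (GRCm38.p6) matched 9 of the 10 genes (all but Lag3), with 11 starts in all. The 250 bases before the start of 4 genes are shown because they stand for both directions of the response to anti-CD3-CD28 described below: Ctla4 at chr1:60908775-60909024 (plus strand), Tigit at chr16:43664185-43664434 (minus strand) and Havcr2 at chr11:46454681-46454930 (plus strand) rose in Treg and in Teff cells, and Btla at chr16:45224087-45224336 (plus strand) fell in both. They run 5′ to 3′ in the gene's direction, with matches on either strand to the AP-1 core TGANTCA and to the NFAT core GGAAA in capitals (TTTCC is the NFAT core on the other strand).
Ctla4: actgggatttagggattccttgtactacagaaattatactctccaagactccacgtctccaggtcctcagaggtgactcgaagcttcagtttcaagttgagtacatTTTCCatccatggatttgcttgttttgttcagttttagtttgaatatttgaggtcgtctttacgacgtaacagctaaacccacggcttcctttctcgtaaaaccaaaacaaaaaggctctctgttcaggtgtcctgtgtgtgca
Tigit: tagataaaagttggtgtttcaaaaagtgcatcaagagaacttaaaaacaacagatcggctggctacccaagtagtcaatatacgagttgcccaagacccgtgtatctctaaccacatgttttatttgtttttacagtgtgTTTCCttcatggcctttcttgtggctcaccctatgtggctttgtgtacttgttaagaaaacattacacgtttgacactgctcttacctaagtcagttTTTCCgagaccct
Havcr2: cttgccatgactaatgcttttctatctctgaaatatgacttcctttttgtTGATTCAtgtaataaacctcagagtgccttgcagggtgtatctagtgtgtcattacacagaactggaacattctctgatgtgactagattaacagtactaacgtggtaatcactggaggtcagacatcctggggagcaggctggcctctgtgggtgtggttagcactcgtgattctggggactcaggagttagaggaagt
Btla: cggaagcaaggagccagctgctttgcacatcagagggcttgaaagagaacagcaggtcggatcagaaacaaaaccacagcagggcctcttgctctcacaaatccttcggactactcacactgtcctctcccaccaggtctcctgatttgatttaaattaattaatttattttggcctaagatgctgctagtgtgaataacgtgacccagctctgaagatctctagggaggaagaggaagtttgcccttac

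The AP-1-like pattern TGANTCA was in 1 of the 11 windows, that of Havcr2, where it reads TGATTCA. It was in 6.7% of all 32851 windows of this length in the table. The NFAT core was in 5 of 11 (55.6% of all windows), with 2 matches for Tigit, 1 for Ctla4 and none for Havcr2 and Btla. The cores TGGGAA, bound by the Notch partner RBPJ, and TGTGGT, bound by RUNX factors, were in 3 and 5 of 11 windows, against 21.6% and 14.0% of all; TGGGAA can overlap the NFAT core. TATAAA was in 0 of 11 windows, against 12.4%. A match describes the letters of the window and was not tested for binding.

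In fresh cells, 6 of the 10 genes were higher in Treg than in Teff cells (adjusted p from limma, threshold 0.05), against 1.34% of all genes tested. None was lower (0 also at an unadjusted p under 0.05 in limma), against 2.51% of all genes. The largest differences were in Ctla4 (10.9-fold), Tigit (5.2-fold), Nt5e (4.19-fold) and Entpd1 (3.96-fold). Anti-CD3-CD28 raised Ctla4, Tigit, Lag3, Havcr2 and Entpd1 and lowered Btla and Cd200 in both cell types. After quantile normalization these calls held in Teff cells, but in Treg cells Tigit and Lag3 did not pass (adjusted p = 0.104 and 0.134). OX40L-JAG1 lowered Lag3 and Tigit in both cell types and raised none of the 10 in Treg cells. In Teff cells Ctla4 and Havcr2 were higher with it, where 20.0% of all genes rose and 26.9% fell. After quantile normalization Tigit in Treg cells (adjusted p = 0.095) and Lag3 and Havcr2 in Teff cells (0.357 and 0.272) did not pass. The Ctla4 rise in Teff cells did not pass with array weights (adjusted p = 0.174) or without most single arrays. Each gene is taken in turn below, and then each comparison.

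**Figure D2:**
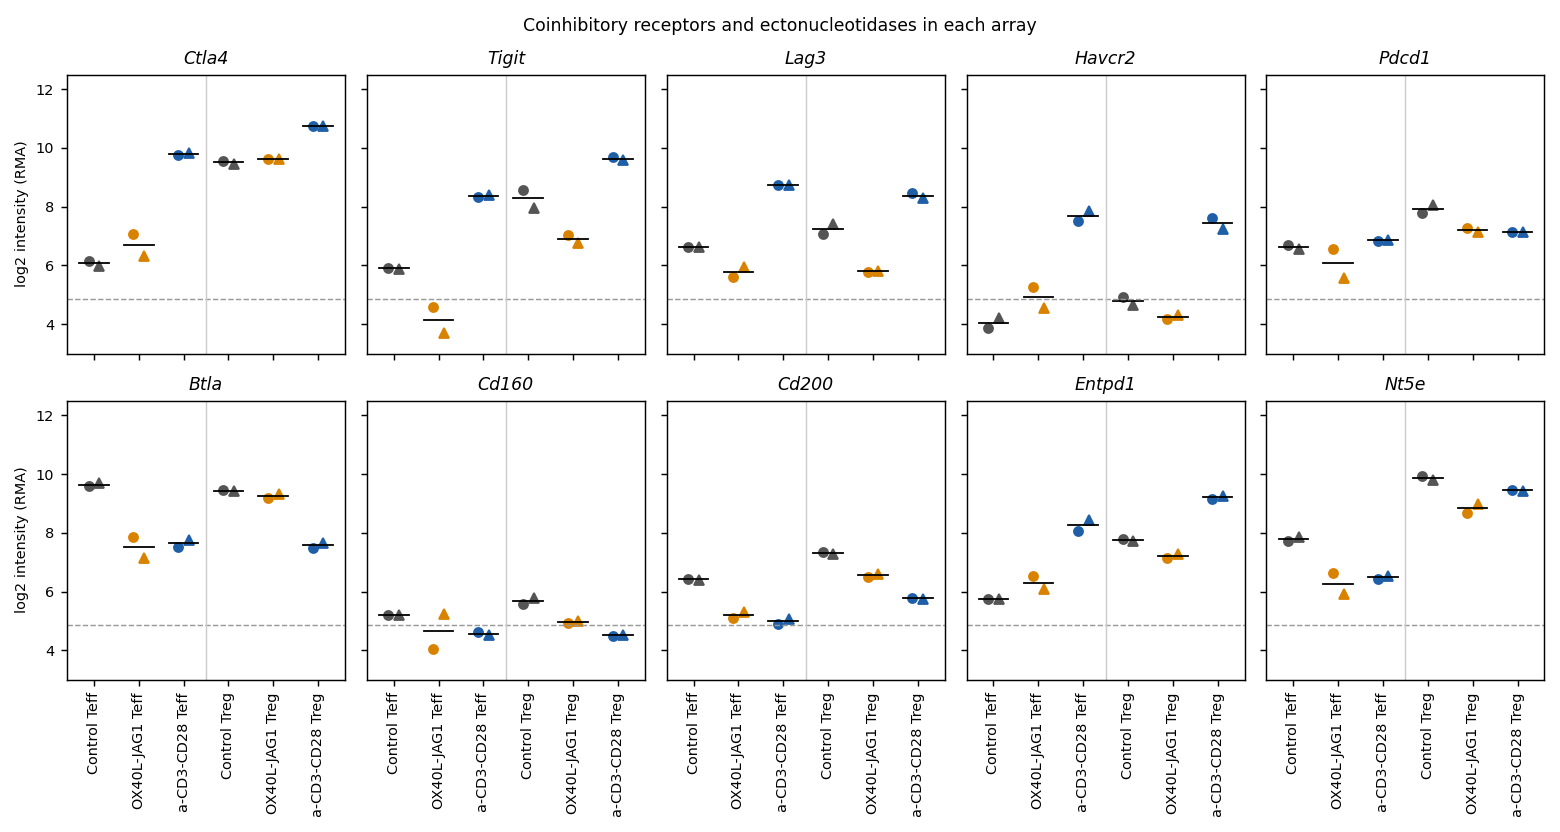
Log2 intensity (RMA) of the 10 genes in each array of the 6 groups: circles are replicate 1, triangles replicate B, horizontal bars group means, and the dashed line the lowest array median (4.87). Ctla4 is low in Control and OX40L-JAG1 Teff arrays (5.99 to 7.08) and at 9.47 or more in all others; Havcr2 is at 7.25 or more only in the a-CD3-CD28 arrays.

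Ctla4 read 6.15 and 5.99 in Control Teff, 7.08 and 6.33 in OX40L-JAG1 Teff and 9.77 and 9.84 in a-CD3-CD28 Teff arrays (replicate 1 first, then replicate B, here and below). Treg arrays read 9.57 and 9.47 (Control), 9.61 and 9.63 (OX40L-JAG1) and 10.74 and 10.76 (a-CD3-CD28). No neighbouring groups overlapped, and the a-CD3-CD28 Teff arrays lay above those of fresh Treg cells. Anti-CD3-CD28 raised Ctla4 by 3.73 ± 0.23 (log2 ± SE, 13.3-fold, adjusted p = 4.03e-06) in Teff and by 1.23 ± 0.23 (2.34-fold, adjusted p = 0.00526) in Treg cells. The response of Treg cells was smaller by the test of the difference itself (-2.51 ± 0.33, adjusted p = 0.00118). With OX40L-JAG1 the change was 0.10 ± 0.23 (adjusted p = 0.975) in Treg and 0.64 ± 0.23 (adjusted p = 0.0422) in Teff cells. The Teff value was 1.40 (adjusted p = 0.000645) after quantile normalization, 0.26 (adjusted p = 0.209) without OX40L-JAG1 Teff replicate 1 and 1.01 without its replicate B.

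Tigit, the receptor for PVR, read 5.92 and 5.88 in Control Teff, 4.60 and 3.69 in OX40L-JAG1 Teff and 8.34 and 8.41 in a-CD3-CD28 Teff arrays. In Treg cells the values were 8.58 and 7.97 (Control), 7.03 and 6.77 (OX40L-JAG1) and 9.70 and 9.58 (a-CD3-CD28). The order from low to high was OX40L-JAG1 Teff, Control Teff, OX40L-JAG1 Treg, Control Treg, a-CD3-CD28 Teff and a-CD3-CD28 Treg, and among neighbours in it the Control Treg and a-CD3-CD28 Teff arrays overlapped. Tigit fell by 1.38 ± 0.29 (2.6-fold) with OX40L-JAG1 in Treg cells (adjusted p = 0.0425) and rose by 1.36 ± 0.29 with anti-CD3-CD28 (adjusted p = 0.0115), so that the cultures differed by 2.74 ± 0.29 (6.66-fold, adjusted p = 0.000222). In Teff cells it fell by 1.75 ± 0.29 and rose by 2.47 ± 0.29, with adjusted p = 0.000751 and 0.000239. The changes from control in Treg cells did not pass after quantile normalization (adjusted p = 0.095 for OX40L-JAG1 and 0.104 for anti-CD3-CD28). The OX40L-JAG1 Teff mean (4.15) lies below every array's median over genes, where the array gives little more than a bound.

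Lag3, a CD4-related receptor that binds MHC class II and Fgl1, was lowest in both OX40L-JAG1 groups. It read 6.62 and 6.62 in Control Teff, 5.62 and 5.94 in OX40L-JAG1 Teff and 8.73 and 8.73 in a-CD3-CD28 Teff arrays. The Treg values were 7.07 and 7.40 (Control), 5.78 and 5.82 (OX40L-JAG1) and 8.45 and 8.30 (a-CD3-CD28). The OX40L-JAG1 Treg arrays lay between those of OX40L-JAG1 Teff, and both groups lay below all others. Lag3 fell by 1.44 ± 0.19 (2.7-fold, adjusted p = 0.00322) in Treg and by 0.85 ± 0.19 (adjusted p = 0.00464) in Teff cells with OX40L-JAG1. It rose by 1.14 ± 0.19 (adjusted p = 0.00262) and 2.10 ± 0.19 (adjusted p = 4.46e-05) with anti-CD3-CD28. The difference between those rises was -0.96 ± 0.27 (adjusted p = 0.0397), and it did not pass after quantile normalization (adjusted p = 0.0555). Nor did the OX40L-JAG1 fall in Teff cells (-0.36, adjusted p = 0.357) and the anti-CD3-CD28 rise in Treg cells (0.78, adjusted p = 0.134).

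Havcr2, which encodes TIM-3, read 3.86 and 4.22 in Control Teff, 5.27 and 4.56 in OX40L-JAG1 Teff and 7.53 and 7.87 in a-CD3-CD28 Teff arrays. Treg cells gave 4.91 and 4.66 (Control), 4.16 and 4.31 (OX40L-JAG1) and 7.61 and 7.25 (a-CD3-CD28). Only the a-CD3-CD28 arrays were clearly above the array medians, and their Treg and Teff ranges overlapped. The rise was 3.65 ± 0.26 (12.6-fold, adjusted p = 1.23e-05) in Teff and 2.65 ± 0.26 (6.26-fold, adjusted p = 6.74e-05) in Treg cells. Both folds start from control means (4.04 and 4.78) below the lowest array median, so their size depends on the background there. The means in Control Teff (4.04) and OX40L-JAG1 Teff cells (4.91) were below the medians of those arrays (4.91, and 5.12 to 5.17). The difference between them depends on the background too. In OX40L-JAG1 Teff cells Havcr2 was higher by 0.87 ± 0.26 (adjusted p = 0.0193), the group with the highest sums of neutrophil, basophil and myeloid markers. Its adjusted p there was 0.272 after quantile normalization, and up to 0.136 without replicate 1 of Control Teff or of OX40L-JAG1 Teff cells.

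Pdcd1, which encodes PD-1, was highest in fresh Treg cells (7.78 and 8.06). It read 7.26 and 7.13 in OX40L-JAG1 Treg and 7.14 and 7.13 in a-CD3-CD28 Treg arrays. In Teff cells it read 6.71 and 6.55 (Control), 6.57 and 5.57 (OX40L-JAG1) and 6.84 and 6.85 (a-CD3-CD28). The 2 cultured Treg groups overlapped, and so did Control and OX40L-JAG1 Teff cells. Its changes in culture did not pass the test: -0.73 ± 0.28 (adjusted p = 0.352) and -0.79 ± 0.28 (adjusted p = 0.109) in Treg and -0.56 ± 0.28 (adjusted p = 0.115) and 0.22 ± 0.28 (adjusted p = 0.686) in Teff cells, for OX40L-JAG1 and anti-CD3-CD28 in that order.

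Btla, the receptor for HVEM (Tnfrsf14), ran the other way. It read 9.58 and 9.69 in Control Teff, 7.86 and 7.14 in OX40L-JAG1 Teff and 7.53 and 7.76 in a-CD3-CD28 Teff arrays. Values in Treg arrays were 9.44 and 9.42 (Control), 9.17 and 9.33 (OX40L-JAG1) and 7.48 and 7.66 (a-CD3-CD28). Its groups fell into a high set, made of both controls and OX40L-JAG1 Treg cells, and a low set of the other 3, whose arrays overlapped. Btla fell by 1.99 ± 0.24 (3.96-fold, adjusted p = 0.000255) in Teff and by 1.86 ± 0.24 (3.63-fold, adjusted p = 0.000376) in Treg cells with anti-CD3-CD28; the difference between these falls was 0.12 ± 0.33 (adjusted p = 0.841), and -0.39 after quantile normalization. With OX40L-JAG1 it fell by 2.13 ± 0.24 (4.39-fold, adjusted p = 7.56e-05) in Teff cells, while the change in Treg cells was -0.18 ± 0.24 (adjusted p = 0.933), and the responses differed by 1.95 ± 0.33 (adjusted p = 0.00171). After quantile normalization the value in OX40L-JAG1 Teff cells was -1.06 and the difference of responses 0.77 (adjusted p = 0.00146 and 0.0489). The anti-CD3-CD28 values were then -1.76 in Teff and -2.15 in Treg cells, so the grouping into a high and a low set depends on the normalization.

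Cd160, a further HVEM receptor, was dim throughout. It read 5.19 and 5.19 in Control Teff, 4.05 and 5.24 in OX40L-JAG1 Teff and 4.62 and 4.52 in a-CD3-CD28 Teff arrays. The Treg arrays gave 5.58 and 5.77 (Control), 4.93 and 5.00 (OX40L-JAG1) and 4.49 and 4.53 (a-CD3-CD28). It was highest in fresh Treg cells, and 3 groups had means below the lowest array median. It fell in Treg cells with anti-CD3-CD28 by 1.16 ± 0.30 (adjusted p = 0.0328), to such a level. After quantile normalization that fall did not pass (adjusted p = 0.123). Cd200, the ligand of the inhibitory receptor Cd200r1, read 6.43 and 6.38 in Control Teff, 5.09 and 5.30 in OX40L-JAG1 Teff and 4.89 and 5.06 in a-CD3-CD28 Teff arrays. Treg values came to 7.34 and 7.26 (Control), 6.51 and 6.60 (OX40L-JAG1) and 5.77 and 5.76 (a-CD3-CD28). No neighbouring groups overlapped, and in each cell type the fresh arrays were highest and the a-CD3-CD28 arrays lowest. Cd200 fell by 1.43 ± 0.17 (2.69-fold, adjusted p = 0.000307) in Teff and by 1.53 ± 0.17 (2.9-fold, adjusted p = 0.000174) in Treg cells with anti-CD3-CD28. With OX40L-JAG1 it fell by 1.21 ± 0.17 (adjusted p = 0.000322) in Teff cells, and the value in Treg cells was -0.75 ± 0.17 (adjusted p = 0.0674). The Cd200 means in a-CD3-CD28 Teff (4.98) and OX40L-JAG1 Teff cells (5.20) were close to those arrays' medians (4.97 to 5.06 and 5.12 to 5.17). The size of the falls in Teff cells therefore depends on the background there.

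The ectonucleotidases differed from each other. Entpd1 read 5.76 and 5.76 in Control Teff, 6.52 and 6.08 in OX40L-JAG1 Teff and 8.07 and 8.44 in a-CD3-CD28 Teff arrays. Among Treg arrays it read 7.78 and 7.71 (Control), 7.15 and 7.29 (OX40L-JAG1) and 9.16 and 9.25 (a-CD3-CD28). No neighbouring groups overlapped, and a-CD3-CD28 Teff arrays lay above those of fresh Treg cells. Entpd1 rose with anti-CD3-CD28 by 2.49 ± 0.21 (5.63-fold, adjusted p = 2.36e-05) in Teff and by 1.46 ± 0.21 (2.75-fold, adjusted p = 0.000813) in Treg cells, a difference of -1.03 ± 0.29 (adjusted p = 0.0402). With OX40L-JAG1 the changes were 0.54 ± 0.21 (adjusted p = 0.051) in Teff and -0.53 ± 0.21 (adjusted p = 0.368) in Treg cells, and they differed from each other by -1.07 ± 0.29 (adjusted p = 0.018). After quantile normalization the Teff value passed as a rise, at 1.14 (adjusted p = 0.00137), and the difference was -1.73 (adjusted p = 0.00291). Nt5e read 7.71 and 7.85 in Control Teff, 6.62 and 5.91 in OX40L-JAG1 Teff and 6.42 and 6.54 in a-CD3-CD28 Teff arrays. The Treg readings were 9.92 and 9.78 (Control), 8.68 and 8.99 (OX40L-JAG1) and 9.45 and 9.42 (a-CD3-CD28). Every Treg array lay above every Teff array. Nt5e fell in Teff cells by 1.52 ± 0.24 (2.86-fold, adjusted p = 0.000504) with OX40L-JAG1 and by 1.30 ± 0.24 (2.46-fold, adjusted p = 0.00343) with anti-CD3-CD28. In Treg cells the values were -1.01 ± 0.24 (adjusted p = 0.0674) and -0.41 ± 0.24 (adjusted p = 0.355). After quantile normalization the OX40L-JAG1 values of Nt5e were -0.81 (adjusted p = 0.019) in Teff and -1.12 (adjusted p = 0.0302) in Treg cells, both past the threshold.

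Treg cells were compared with Teff cells of the same condition. In fresh cells, Ctla4 was higher by 3.45 ± 0.23 (adjusted p = 1.29e-05), Tigit by 2.38 ± 0.29 (adjusted p = 0.000905), Nt5e by 2.07 ± 0.24 (adjusted p = 0.000549) and Entpd1 by 1.99 ± 0.21 (adjusted p = 0.000256). Pdcd1 was higher by 1.29 ± 0.28 (adjusted p = 0.0258) and Cd200 by 0.90 ± 0.17 (adjusted p = 0.0155). The other 4 genes had differences between -0.20 (Btla) and 0.74 (Havcr2). The median over the 10 genes was 1.09, against 0.02 over all genes. Without the OX40L-JAG1 Teff arrays, which widen the shared estimate of the spread, 9 of 10 were higher, against 5.59% of all genes. Pdcd1 did not pass after quantile normalization (adjusted p = 0.0623) or without any 1 array of the Control Teff, Control Treg or a-CD3-CD28 Treg groups (adjusted p up to 0.233), and Cd200 without any 1 array of the control groups (up to 0.173). The count ranged from 4 (Control Teff replicate B left out) to 9 (OX40L-JAG1 Teff replicate B left out).

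After OX40L-JAG1, 7 of 10 genes were higher in Treg than in Teff cells, against 24.6% of all genes, and none was lower, against 16.5% (1, Havcr2, at an unadjusted p under 0.05 in limma). Ctla4 was higher by 2.92 ± 0.23, Tigit by 2.75 ± 0.29, Nt5e by 2.57 ± 0.24 and Btla by 1.75 ± 0.24 (adjusted p = 3.78e-05, 9.84e-05, 5.84e-05 and 0.000325). Cd200 (1.36 ± 0.17), Pdcd1 (1.12 ± 0.28) and Entpd1 (0.92 ± 0.21) followed. Lag3 differed by 0.02 ± 0.19 (adjusted p = 0.929), and by -0.33 after quantile normalization. The median over the 10 genes was 1.24, against -0.14 over all genes. The comparison rests on the OX40L-JAG1 Teff arrays, in which the summed T cell markers were lower, and the neutrophil, basophil and mast, and myeloid and dendritic sums higher, than in OX40L-JAG1 Treg cells. The SD over genes of the replicate difference was 0.81 in OX40L-JAG1 Teff, against 0.234 to 0.362 in the other groups. The shared estimate of the spread is narrower than that of this group. The p-values of all comparisons and interactions that use OX40L-JAG1 Teff arrays can therefore be too low. After quantile normalization Pdcd1 and Entpd1 did not pass (adjusted p = 0.168 and 0.321), nor with array weights (0.053 and 0.0865), and Pdcd1 did not without OX40L-JAG1 Treg replicate 1 (0.0544). The value for Ctla4 was 2.03 and that for Btla 0.70 after quantile normalization, both past the threshold.

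After anti-CD3-CD28, 5 of 10 were higher in Treg cells, against 9.03% of all genes, and none was lower, against 2.89% (0 also at an unadjusted p under 0.05 in limma). Nt5e had the largest difference, 2.95 ± 0.24 (7.75-fold, adjusted p = 3.24e-05). Tigit (1.26 ± 0.29), Entpd1 (0.95 ± 0.21), Ctla4 (0.94 ± 0.23) and Cd200 (0.79 ± 0.17) were higher with adjusted p = 0.0176, 0.0132, 0.0232 and 0.0145. Lag3 (-0.35 ± 0.19) and Havcr2 (-0.27 ± 0.26) had differences below 0 that did not pass. The median over the 10 genes was 0.54, against -0.05 over all genes. The call for Nt5e held without each array in turn. Ctla4 and Tigit lost theirs without any 1 of the 4 arrays compared (adjusted p up to 0.139 and 0.126), and Cd200 and Entpd1 without a-CD3-CD28 Teff replicate 1 or either a-CD3-CD28 Treg array (up to 0.11 and 0.124). Without a-CD3-CD28 Treg replicate B, 1 gene passed. After quantile normalization Tigit and Entpd1 did not pass (adjusted p = 0.173 and 0.0782).

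**Figure D3:**
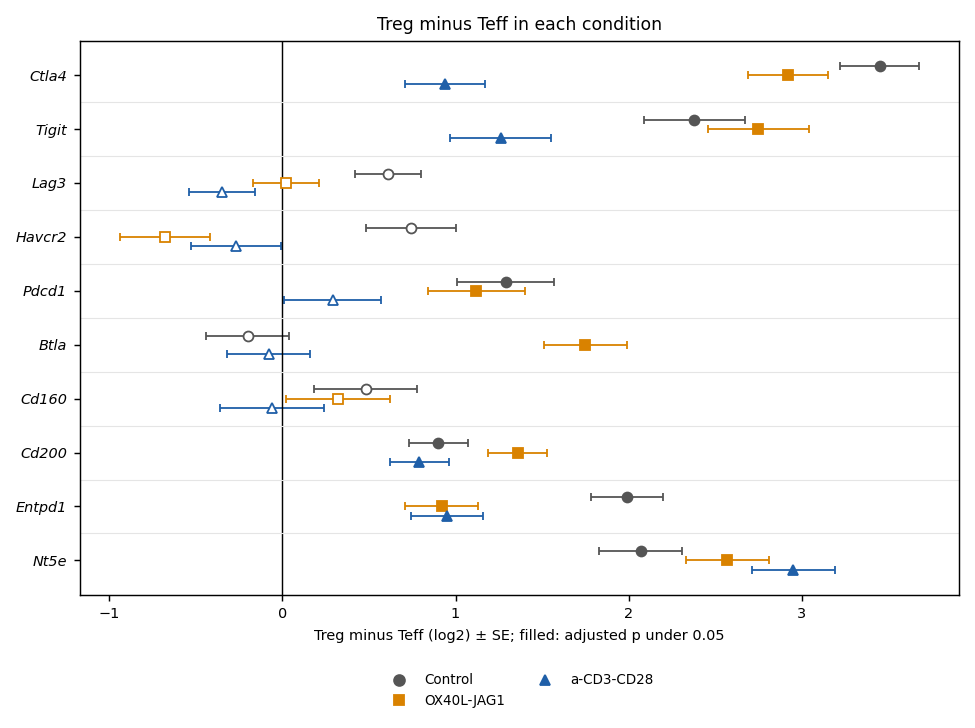
Treg minus Teff difference (log2) of the 10 genes in Control, OX40L-JAG1 and a-CD3-CD28 cells; bars are the standard error from limma and filled points have an adjusted p under 0.05. Nt5e is higher in Treg cells in all 3 conditions, by 2.07 to 2.95, while the difference in Ctla4 is 3.45, 2.92 and 0.94.

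In Treg cells, OX40L-JAG1 lowered 2 of 10 genes, Lag3 and Tigit, against 0.559% of all genes, and raised none, against 0.996% (0 also at an unadjusted p under 0.05 in limma). All 10 values except that of Ctla4 (0.10, and -0.02 after quantile normalization) were below 0, with a median of -0.72, against -0.01 over all genes. Without the OX40L-JAG1 Teff arrays 6 of 10 passed as lower, against 2.01% of all genes: Pdcd1, Cd160, Cd200 and Nt5e joined them. After quantile normalization Nt5e passed as lower (-1.12, adjusted p = 0.0302). The call for Tigit did not hold after quantile normalization (adjusted p = 0.095) or without any 1 of the 10 arrays outside the OX40L-JAG1 Teff group (adjusted p up to 0.38), and that for Lag3 without Control Treg replicate B (0.0567). The count ranged from 0 (Control Treg replicate B left out) to 6 (OX40L-JAG1 Teff replicate B left out).

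Anti-CD3-CD28 raised 5 of 10 in Treg cells (Havcr2, Entpd1, Tigit, Ctla4 and Lag3), against 8.08% of all genes, and lowered 3 (Btla, Cd200 and Cd160), against 1.97%. The median was 0.36, against -0.05 over all genes. Without the OX40L-JAG1 Teff arrays Pdcd1 was lower too, against 6.75% of all genes. After quantile normalization Tigit, Lag3 and Cd160 did not pass (adjusted p = 0.104, 0.134 and 0.123). Leaving out Control Treg replicate B ended the calls for Ctla4 (0.0543) and Tigit (0.135), and a-CD3-CD28 Treg replicate B those for both, a-CD3-CD28 Treg replicate 1 that for Tigit, and any 1 array outside the OX40L-JAG1 Teff group that for Cd160 (up to 0.202). The count ranged from 5 (Control Treg replicate B left out) to 9 (OX40L-JAG1 Teff replicate B left out). Set directly against OX40L-JAG1 Treg cells, a-CD3-CD28 Treg cells had 5 genes higher, against 4.73% of all genes: Havcr2 by 3.19 ± 0.26 (9.15-fold, from a mean below the lowest array median), Tigit, Lag3 by 2.58 ± 0.19 (5.96-fold), Entpd1 by 1.99 ± 0.21 and Ctla4 by 1.13 ± 0.23. Btla (-1.68 ± 0.24) and Cd200 (-0.79 ± 0.17) were lower, against 1.18% of all genes. The median was 0.86, against -0.02 over all genes. Ctla4 and Cd200 lost these calls without any 1 of the 4 arrays compared (adjusted p up to 0.11 and 0.155), and Nt5e joined the higher genes without the OX40L-JAG1 Teff arrays (9.89% of all genes).

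In Teff cells, anti-CD3-CD28 raised 5 of 10 (Ctla4, Havcr2, Entpd1, Tigit and Lag3), against 5.44% of all genes, and lowered Btla, Cd200 and Nt5e, against 9.75%. All 8 calls held without each array in turn and after quantile normalization. The median was 1.16, against 0.07 over all genes. Without the OX40L-JAG1 Teff arrays Cd160 was lower too (16.5% of all genes). OX40L-JAG1 lowered 5 of 10 (Btla, Tigit, Nt5e, Cd200 and Lag3), against 26.9% of all genes, and Havcr2 and Ctla4 were higher, against 20.0%. The median was -0.70, against 0.18 over all genes. Here 5964 genes fell and 4441 rose, T cell markers were lower (6 of 7 fell) and 6 of 9 neutrophil markers rose. Lag3 and Havcr2 did not pass after quantile normalization (adjusted p = 0.357 and 0.272) or with array weights (0.0794 and 0.153), and Ctla4 did not with array weights (0.174) or without any 1 array except OX40L-JAG1 Teff replicate B (up to 0.209). After quantile normalization Ctla4 had the larger value of 1.40 (adjusted p = 0.000645), Entpd1 passed as higher (1.14, adjusted p = 0.00137) and Nt5e had -0.81 (adjusted p = 0.019). Havcr2 lost its call without Control Teff replicate 1 or OX40L-JAG1 Teff replicate 1 (up to 0.136). Single arrays left out gave 5 (without Control Teff replicate 1) to 9 calls (without OX40L-JAG1 Teff replicate B).

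Between the cultured Teff groups, Tigit (4.23 ± 0.29), Ctla4 (3.10 ± 0.23), Lag3 (2.95 ± 0.19), Havcr2 (2.78 ± 0.26) and Entpd1 (1.95 ± 0.21) were higher with anti-CD3-CD28, 5 of 10 against 18.9% of all genes. None was lower, against 9.15% (0 also at an unadjusted p under 0.05 in limma). Each of the 5 held without each array in turn and after quantile normalization. The median was 1.36, against -0.05 over all genes. Btla differed by 0.15 ± 0.24 (adjusted p = 0.665) and turned to -0.70 (adjusted p = 0.0135) after quantile normalization. The count was 9 without OX40L-JAG1 Teff replicate 1.

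**Figure D4:**
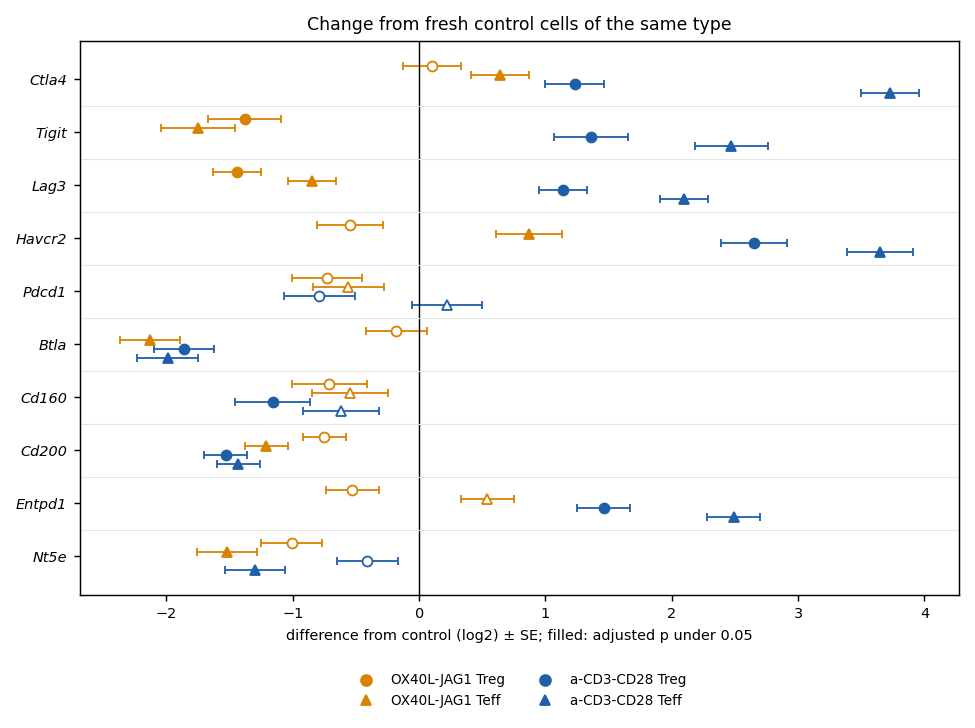
Difference from fresh control cells (log2) of the 10 genes in the 4 cultured groups; bars are the standard error from limma, circles Treg, triangles Teff, and filled points have an adjusted p under 0.05. Anti-CD3-CD28 values of Ctla4, Tigit, Lag3, Havcr2 and Entpd1 lie between 1.14 and 3.73, and those of Btla and Cd200 between -1.99 and -1.43.

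The responses of Treg and Teff cells were then compared directly. For OX40L-JAG1, Btla had the higher value in Treg cells (1 of 10, against 21.3% of all genes), and Havcr2 (-1.42 ± 0.37, adjusted p = 0.0148) and Entpd1 had the lower (2 of 10, against 10.2%). The median difference of responses was -0.17 over the 10 genes and also over all genes. Havcr2 did not pass after quantile normalization (adjusted p = 0.173) or without replicate 1 of Control Teff, Control Treg or OX40L-JAG1 Treg cells (up to 0.0666), and Entpd1 not with array weights (0.0531), without either Control Teff array, or without replicate 1 of Control Treg or OX40L-JAG1 Treg cells (up to 0.0619). The same normalization gave Ctla4 a lower response in Treg cells (-1.42, adjusted p = 0.00718, against -0.53 ± 0.33 and 0.222), and values of -1.73 for Entpd1 and 0.77 for Btla. Without OX40L-JAG1 Teff replicate 1, 7 genes passed, and without Control Teff replicate 1, 1 did. For anti-CD3-CD28, Ctla4, Entpd1 and Lag3 had the lower response in Treg cells, 3 of 10 against 2.94% of all genes, and none had the higher, against 10.1% (1, Nt5e, at an unadjusted p under 0.05 in limma). The median was -0.98, against -0.08 over all genes. Ctla4 held without each array in turn. Entpd1 and Lag3 did not hold without most arrays (adjusted p up to 0.136 and 0.15; Entpd1 held only without an OX40L-JAG1 Teff array, and Lag3 also without Control Treg replicate 1), nor did Lag3 after quantile normalization (0.0555). Without the OX40L-JAG1 Teff arrays Tigit, Havcr2 and Pdcd1 joined the lower genes (6 of 10, against 11.0% of all genes), and Nt5e was higher (20.0%). The count ranged from 1 without Control Teff replicate B to 7 without OX40L-JAG1 Teff replicate B.

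The ligands were read in the same cells. Cd80 and Cd86, which CTLA-4 shares with CD28, were higher in fresh Treg than Teff cells by 2.11 ± 0.18 and 0.93 ± 0.19 (adjusted p = 8.92e-05 and 0.0219), with Cd80 below the lowest array median in Control Teff cells. In Treg cells Cd80 rose with OX40L-JAG1 (0.95 ± 0.18) and with anti-CD3-CD28 (1.22 ± 0.18), whereas Cd86 rose with OX40L-JAG1 (1.51 ± 0.19, adjusted p = 0.00239) and had 0.47 ± 0.19 (adjusted p = 0.178) with anti-CD3-CD28. Both are also expressed by myeloid and dendritic cells, whose markers were higher in the OX40L-JAG1 groups. Pvr, the ligand of TIGIT and CD226, rose in a-CD3-CD28 Treg cells by 1.23 ± 0.28 (adjusted p = 0.0179) and fell in OX40L-JAG1 Teff cells by 2.55 ± 0.28 (adjusted p = 7.69e-05). The activating receptor Cd226 fell with anti-CD3-CD28 in Treg (-1.45 ± 0.30) and in Teff cells (-2.14 ± 0.30), with adjusted p = 0.0103 and 0.000791, where Tigit rose.

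Cd274, which encodes PD-L1, had changes of 0.66 ± 0.30 and 0.52 ± 0.30 with anti-CD3-CD28 in Treg and Teff cells that did not pass (adjusted p = 0.231 and 0.308), and Pdcd1lg2 passed in no comparison. Lgals9, encoding a ligand of TIM-3, fell in Teff cells with anti-CD3-CD28 (-1.83 ± 0.27) and with OX40L-JAG1 (-2.91 ± 0.27); its Treg values were 0.37 ± 0.27 and -0.33 ± 0.27. Tnfrsf14, encoding the BTLA and CD160 ligand HVEM, and Nectin2 passed in no comparison. Cd200r1 fell in OX40L-JAG1 Teff cells by 1.33 ± 0.28 (adjusted p = 0.00298) and was higher in Treg than Teff cells in both cultures, by 1.88 ± 0.28 and 1.26 ± 0.28. Over the 14 listed ligands and counter-receptors, 3 rose and none fell in Treg cells with either culture (0 also fell at an unadjusted p under 0.05 in limma). Of all genes, 0.996% rose and 0.559% fell with OX40L-JAG1 there, and 8.08% rose and 1.97% fell with anti-CD3-CD28. In Teff cells 2 rose and 5 fell with OX40L-JAG1, against 20.0% and 26.9% of all genes, and 2 rose and 2 fell with anti-CD3-CD28, against 5.44% and 9.75%, the rises including Lgals3 (3.07 ± 0.28) and Cd80, whose control mean was below the lowest array median.

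Among 12 further coinhibitory receptors, 1 rose and 1 fell in Treg cells with each culture. Of all genes, 0.996% rose and 0.559% fell there with OX40L-JAG1 and 8.08% and 1.97% with anti-CD3-CD28, and in Teff cells 20.0% and 26.9% with OX40L-JAG1 and 5.44% and 9.75% with anti-CD3-CD28, which are the shares for the lists that follow too. Lilrb4a rose by 3.43 ± 0.32 (10.8-fold) with OX40L-JAG1 and 3.20 ± 0.32 (9.16-fold) with anti-CD3-CD28, and Klrg1, an inhibitory receptor of mature Treg cells, fell (-1.70 ± 0.27 and -1.19 ± 0.27). In fresh cells Klrg1 was 19.5-fold higher in Treg cells (4.29 ± 0.27, adjusted p = 8.68e-06), from a Teff mean below the lowest array median. In Teff cells with anti-CD3-CD28, 1 of 12 rose (Lilrb4a, 3.49 ± 0.32) and 5 fell, among them Cd96 (-1.63 ± 0.33), a receptor that shares ligands with TIGIT, and Ceacam1, which fell from a mean of 5.74 to 4.04, below the lowest array median, where the value gives little more than a bound. With OX40L-JAG1, 2 rose and 4 fell; Lilrb4a rose by 4.48 ± 0.32, and Cd96 (-2.42 ± 0.33) and Cd5 (-1.97 ± 0.18) fell. Lilrb4a is also known from myeloid and mast cells. The median of the 12 genes with anti-CD3-CD28 was 0.02 in Treg and -0.12 in Teff cells. Of 8 costimulatory counterparts, 1 rose (Icos, 1.93 ± 0.23) and 1 fell (Cd226) in Treg cells with anti-CD3-CD28, 1 rose (Icos, 1.93 ± 0.23) and 3 fell in Teff cells, and 7 fell in Teff cells with OX40L-JAG1, including Slamf6 (-1.84 ± 0.27) and Cd28 (-1.54 ± 0.25). None of the 8 passed in Treg cells with OX40L-JAG1 (1, in the lower direction, at an unadjusted p under 0.05 in limma).

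In the order of genes in RefSeq's GRCm38.p6 annotation, Ctla4 lies between Cd28 and Icos. With anti-CD3-CD28, Ctla4 and Icos rose in both cell types, while Cd28 had 0.74 ± 0.25 in Treg (adjusted p = 0.101) and -0.51 ± 0.25 in Teff cells (adjusted p = 0.224). Btla and Cd200 are next to each other, and both fell in both cell types. Lag3 lies beside Cd4. No positions on the chromosomes are given for these rows because the build of the array's annotation is unstated here.

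Of 22 listed genes of purine and adenosine metabolism beside Entpd1 and Nt5e, 17 were measured; adenosine receptors Adora1, Adora2a and Adora2b were not analysed here. With anti-CD3-CD28, 2 of 17 rose (8.08% of all genes) and none fell (1.97%) in Treg cells (1 fell at an unadjusted p under 0.05 in limma): Entpd7, an intracellular relative of CD39, by 2.12 ± 0.20 (adjusted p = 4.88e-05) and Entpd5 by 0.73 ± 0.19. In Teff cells 3 fell, P2rx7 (-2.27 ± 0.35), Entpd6 (-0.97 ± 0.24) and Entpd5 (-0.66 ± 0.19), and none rose (0 also at an unadjusted p under 0.05 in limma). P2rx7 is the ATP-gated channel whose ligand CD39 removes; it was higher in Treg than Teff cells by 2.31 ± 0.35 after anti-CD3-CD28 and 2.01 ± 0.35 after OX40L-JAG1. With OX40L-JAG1, none of 17 passed in Treg cells (at an unadjusted p under 0.05 in limma 3 were higher and 2 lower), where 0.996% of all genes rose and 0.559% fell. In Teff cells 1 rose and 7 fell, against 20.0% and 26.9% of all genes. Ada, adenosine deaminase, passed in no comparison. In fresh cells Entpd5 and Entpd7 were lower in Treg cells (-1.14 ± 0.19 and -1.10 ± 0.20), the reverse of Entpd1.

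Signalling genes downstream of inhibitory receptors (17 measured) included 3 that rose and 1 that fell in Treg cells with anti-CD3-CD28, among them Inpp5d, the phosphatase SHIP-1 (0.97 ± 0.18), and Lax1 (-1.30 ± 0.24). In Teff cells 6 fell and none rose (0 also at an unadjusted p under 0.05 in limma), among the falls Dgka, a diacylglycerol kinase, by 1.88 ± 0.18. With OX40L-JAG1 none passed in Treg cells (at an unadjusted p under 0.05 in limma 3 were higher and 1 lower), and 15 of 17 fell in Teff cells, among them Inpp5d (-2.26 ± 0.18) and Cblb (-1.94 ± 0.21); 26.9% of all genes fell there. Of 19 measured transcription factors tied to these receptors, 7 rose and 3 fell in Treg cells with anti-CD3-CD28, against 8.08% and 1.97% of all genes, and 4 rose and 7 fell in Teff cells, against 5.44% and 9.75%. Maf and Prdm1, which are known to drive several coinhibitory receptor genes, both rose in a-CD3-CD28 cells. Maf rose by 1.06 ± 0.18 in Treg and 1.33 ± 0.18 in Teff cells, and Prdm1 by 1.36 ± 0.23 and 2.03 ± 0.23. With OX40L-JAG1, Maf fell in Treg (-1.42 ± 0.18) and in Teff cells (-1.94 ± 0.18). Batf rose in a-CD3-CD28 Treg cells by 1.69 ± 0.43 (adjusted p = 0.0292) and Id3 fell by 2.53 ± 0.34. Tox, linked to lasting inhibitory receptor expression in exhausted T cells, fell with anti-CD3-CD28 in Treg cells (adjusted p = 0.00447) and in Teff cells (-2.79 ± 0.18). Nr4a1 fell in all 4 comparisons with control, with values from -0.74 ± 0.20 to -2.58 ± 0.20.

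Among 8420 genes whose group means spanned at least 1 (log2), the gene most like each member over the 12 arrays was found by Pearson's r; this is a description, since the arrays share their groups. Ctla4 was most like Il2ra (r = 0.997), the high-affinity IL-2 receptor chain, then Tnfrsf4 (0.989), which encodes OX40, and Prr13 (0.972). Tigit was most like Il2rb (0.980), Cst7 (0.978) and Arhgap18 (0.974), and Havcr2 like Adam8 (0.975), Gzmb (0.970), a cytotoxic granule protease, and Cemip2 (0.969). Lag3 was most like Fkbp5 (0.959), Car5b (0.958) and Mx2 (0.956). Entpd1 was most like Neb (0.976), Cenpm (0.956) and Ccr8 (0.955), a chemokine receptor of activated Treg cells. Nt5e was most like Lclat1 (0.997), Fam118b (0.980) and Izumo1r (0.974), which encodes folate receptor 4 of Treg cells. Btla was most like Ipcef1 (0.974), Asap1 (0.964) and Selenop (0.947), Cd200 like Inpp5f (0.966), Rgs2 (0.959) and Cyth3 (0.955), Pdcd1 like Mrpl52 (0.952), Bmyc (0.952) and Gsto1 (0.937), and Cd160 like Fcrl1 (0.931), Dhrs3 (0.907) and Sorcs2 (0.866). Without the OX40L-JAG1 Teff arrays these r values lay between 0.868 and 0.995. Within the set, Ctla4 and Entpd1 had r = 0.94 over the 12 arrays, Ctla4 and Tigit 0.88, and Havcr2 and Btla -0.73, which was -0.97 without the OX40L-JAG1 Teff arrays.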

How the data were processed

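Total RNA of 12 samples was measured on 1 array each. The deposited log2 values are RMA intensities that the authors made, per the submitters' processing notes (RMA version, genome build and annotation: not given in the sources used here), and were analysed without further normalization. Of 41345 rows, 23521 had 1 gene symbol, and for each of 22180 genes the row with the highest mean was used. limma 3.58.1 in R 4.3.3 was fitted over all 12 arrays with 1 mean per group (6 residual degrees of freedom), with Benjamini-Hochberg adjustment over all genes of each of 9 comparisons and 2 interactions, two-sided, threshold 0.05. The procedure was tested on simulated data in which a gene had the same spread in all groups, for a-CD3-CD28 Treg minus Control Treg only. That setting cannot show how calls behave with the wider spread of the OX40L-JAG1 Teff arrays. The members, lists and rules were chosen with earlier results of these data known. Genes named are the 10 members, Foxp3 and 14 known partners (Adora2a was not analysed here), up to 3 called genes with the largest change per pathway list and comparison, and the 3 genes most like each member, leaving out predicted, clone-named, small RNA, olfactory or vomeronasal receptor and antigen receptor segment genes. Of 93 pathway genes 87 were measured, and of 66 marker genes 59. Alternatives were a fit with the replicate as a block, removal of dim genes, trend and robust shrinkage, quantile normalization, array weights, the mean of all rows, the OX40L-JAG1 Teff arrays left out and each array left out. Replicate differences between groups gave 15 correlations from -0.0693 to 0.182, with 2 over 0.1, so replicate numbers were not taken as pairs. The number of arrays limits the precision.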

Additional observations from a re-analysis of the deposited data

Results flagged for a closer look

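For 6 values, the response of Treg cells to a culture differed from that of Teff cells by the interaction term in limma. With OX40L-JAG1 the Treg minus Teff response was 1.95 for Btla, -1.42 for Havcr2 and -1.07 for Entpd1 (adjusted p = 0.00171, 0.0148 and 0.018). With anti-CD3-CD28 it was -2.51 for Ctla4, -0.96 for Lag3 and -1.03 for Entpd1 (adjusted p = 0.00118, 0.0397 and 0.0402). Of these, Havcr2 with OX40L-JAG1 and Lag3 with anti-CD3-CD28 did not pass after quantile normalization (adjusted p = 0.173 and 0.0555). Entpd1 did not pass with array weights for OX40L-JAG1 (adjusted p = 0.0531). For anti-CD3-CD28 it did not pass with the replicate as a block (adjusted p = 0.0539). With single arrays left out in turn, the calls for Btla and Ctla4 held each time, and the others did not. Ctla4 passed after quantile normalization (adjusted p = 0.00027). The first 3 values use the OX40L-JAG1 Teff arrays, which stood apart, and the part of that in them was not tested.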

How the results depend on the processing

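Of 61 calls of members, 41 held with every array left out in turn and 38 under every alternative. Trend and robust shrinkage and the mean of all rows changed no call. The replicate block ended the call for Entpd1 in the anti-CD3-CD28 interaction (adjusted p = 0.0539) and changed no other call. Quantile normalization shifted the median of all genes by 0.13 in OX40L-JAG1 Treg minus Teff, by -0.18 in OX40L-JAG1 Teff minus control and by 0.17 in the OX40L-JAG1 interaction, and by 0.10 or less elsewhere. Of 110 member values it ended 13 calls and turned 10 in sign. Among values that kept their sign, 3 newly passed the threshold (Nt5e in OX40L-JAG1 Treg minus control, -1.12, Entpd1 in OX40L-JAG1 Teff minus control, 1.14, and Ctla4 in the OX40L-JAG1 interaction, -1.42). Among those that turned, Btla between cultured Teff cells (-0.70) newly passed too. Quantile normalization gave 3 calls in a-CD3-CD28 Treg minus Teff and 5 in a-CD3-CD28 Treg minus control. OX40L-JAG1 Treg minus control had 4 calls with dim genes left out, 6 with array weights and 6 without the OX40L-JAG1 Teff arrays. Array weights gave 4 calls in OX40L-JAG1 Teff minus control and 7 in the anti-CD3-CD28 interaction, as did leaving out the OX40L-JAG1 Teff arrays in the latter (7). Leaving out single arrays gave 4 to 9 calls in control, 6 to 9 in OX40L-JAG1 and 1 to 5 in a-CD3-CD28 Treg minus Teff. In Treg cells it gave 0 to 6 for OX40L-JAG1 and 5 to 9 for a-CD3-CD28 against control, and 5 to 8 between cultures. In Teff cells it gave 5 to 9, 8 to 9 and 5 to 9 in the same order, and 1 to 7 in each interaction. Quantile normalization turned the sign of 10 values: Lag3 in OX40L-JAG1 Treg minus Teff (-0.33), Pdcd1 (-0.08) and Cd160 (0.13) in a-CD3-CD28 Treg minus Teff, Ctla4 in OX40L-JAG1 Treg minus control (-0.02), Btla (-0.70), Cd160 (0.09) and Nt5e (-0.23) between cultured Teff cells, Cd160 (0.09) and Nt5e (-0.31) in the OX40L-JAG1 interaction and Btla (-0.39) in that of anti-CD3-CD28. Leaving out single arrays changed the sign of some of the same values and of others, with ranges over the arrays of -0.14 to 0.18 for Lag3 and -0.28 to 0.91 for Cd160 in OX40L-JAG1 Treg minus Teff, -0.19 to 0.04 for Btla in a-CD3-CD28 Treg minus Teff, -0.13 to 0.01 for Pdcd1 between cultured Treg cells and -1.14 to 0.05 for Cd160 in OX40L-JAG1 Teff minus control. Between cultured Teff cells they were -0.22 to 0.51 for Btla, -0.67 to 0.52 for Cd160 and -0.14 to 0.57 for Nt5e, and in the OX40L-JAG1 interaction -0.08 to 0.83 for Tigit, -0.67 to 0.33 for Pdcd1 and -0.76 to 0.43 for Cd160. The cause of these changes was not tested. Means below the lowest array median (Havcr2 in 3 groups, Cd160 in 3, Tigit in 1) give no firm fold. Close above it were Havcr2 in OX40L-JAG1 Teff (4.91), Cd160 in OX40L-JAG1 Treg (4.96) and Cd200 in a-CD3-CD28 Teff cells (4.98), where the same care applies. With an array left out, the lone array of its group is assumed to vary like the other groups.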
